A study of Rattus norvegicus with 10 samples.

Results

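The genes described here are 5 that handle zinc in the rat liver: the metallothioneins Mt1 and Mt2A, the transcription factor Mtf1, the zinc exporter Slc30a1 and the zinc importer Slc39a8. They were taken by gene symbol, through the accession that each array probe carries, which gave 7 probes of the 41012 on the array, 5 of 13837 genes that could be named. Mt1, Mt2A, Mtf1 and Slc30a1 had 1 probe each and Slc39a8 had 3. The livers came from male Sprague Dawley rats killed 24 h after a single subcutaneous injection. Control rats (n = 3 arrays) received propylene glycol, the solvent. SM rats (n = 4) received 3.5 mg/kg sulfur mustard, an alkylating blister agent, at 0.7 of the LD50. SM+MSTF rats (n = 3) received the same sulfur mustard and, 1 h later, 120 mg/kg MSTF by stomach tube. MSTF is prepared from a pair of medicinal plants, Anemarrhena asphodeloides for its flavonoids and Salvia miltiorrhiza for its salvianolic acids. No array came from rats given MSTF without SM, so MSTF was only measured on top of the injury.

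Metallothioneins are small cysteine-rich proteins that bind zinc and copper, and their thiols also react with electrophiles and oxidants. In hepatocytes their transcription responds to zinc through MTF1, a zinc finger protein that binds metal response elements, and also to glucocorticoids and to interleukin 6 signalling. SLC30A1 moves zinc out across the plasma membrane and its gene is another MTF1 target. SLC39A8 carries zinc and manganese into the cell.

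Promoter sequences are shown for Mt1, Mt2A and Slc30a1 because these are the members whose transcription is tied to metal response elements. Each run holds the 250 bases before the start of the gene, 5′ to 3′ on the gene's strand, from RefSeq on the rat assembly GRCr8. Capitals mark each match to TGCACNC or TGCGCNC on either strand, the core letters of the metal response element. The Mt1 window is chr19:10832976-10833225 (minus strand), the Mt2A window is chr19:10838709-10838958 (minus strand) and the Slc30a1 window is chr13:106021769-106022018 (plus strand).
Mt1: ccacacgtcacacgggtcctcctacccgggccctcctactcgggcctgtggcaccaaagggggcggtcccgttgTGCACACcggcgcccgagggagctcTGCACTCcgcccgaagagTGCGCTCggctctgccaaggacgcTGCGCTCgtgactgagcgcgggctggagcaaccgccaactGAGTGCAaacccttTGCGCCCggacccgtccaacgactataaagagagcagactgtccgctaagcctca
Mt2A: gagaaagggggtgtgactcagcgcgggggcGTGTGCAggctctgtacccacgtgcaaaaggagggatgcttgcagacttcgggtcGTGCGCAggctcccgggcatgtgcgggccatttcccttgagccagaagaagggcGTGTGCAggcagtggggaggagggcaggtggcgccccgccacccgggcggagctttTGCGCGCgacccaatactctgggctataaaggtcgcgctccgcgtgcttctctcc
Slc30a1: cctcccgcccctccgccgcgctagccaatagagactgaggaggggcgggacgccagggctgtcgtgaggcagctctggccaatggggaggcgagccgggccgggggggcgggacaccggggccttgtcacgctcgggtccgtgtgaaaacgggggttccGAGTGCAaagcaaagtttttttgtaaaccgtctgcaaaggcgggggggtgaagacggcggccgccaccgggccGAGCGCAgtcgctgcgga

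The Mt1 window held 6 matches and the Mt2A window held 4. Both had a match whose first base lay 55 bases before the start. The Slc30a1 window held 2 matches, at 91 and 18 bases before the start. The Mtf1 window also held 2, at 249 and 51 bases before the start. None was found in the Slc39a8 window. Over the 33469 promoters of the same length in that table, 20.6% held at least 1 match and 1.17% held at least 3. The letters TGACNNNGC of the antioxidant response element were found once in the Mt1, Mt2A, Slc30a1 and Slc39a8 windows and at 2 places in that of Mtf1, against 10.1% of all windows with at least 1, and no match overlapped a metal response match. The palindromic glucocorticoid response element was in none of the 5 windows and in 0.012% of all windows. These matches describe letters and not bound sites.

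Every array was a one-colour Agilent array of 1 liver, and values below are log2 normalized signals. All 7 probes were well above background on all 10 arrays, none was saturated, and each was a single spot. The scanner files mark Mt1 as scaled up from a low-gain scan on all 10 arrays, and Mt2A on 4, SM replicate 1 and the 3 SM+MSTF arrays, so for Mt2A the scan range moved with the signal. Its part in the difference was not tested. Of the probes on each array, 51.9% to 61.4% were well above background. All control arrays shared slide 1 with SM+MSTF replicate 3. The other 2 SM+MSTF arrays were on slide 3. The SM arrays filled slide 2 alone, so effects of SM and of that slide cannot be told apart. The 7 hepatocyte markers were all detected, and the log2 of their summed signal stayed between 20.4 and 20.6 in every group. That sum had little room to move, since quantile normalization sets the brightest ranks alike on all arrays. Tf, for example, read 18.72 on all 3 SM+MSTF arrays. Between SM+MSTF and control Ttr differed by -0.49, Apoa1 by -0.44 and Apob by 0.32 on the log2 scale. The median of the 7 in that comparison was -0.03. The word called is used below for an adjusted p under 0.05 together with a difference of 1.5-fold or more, in a limma fit over the 22987 probes detected in at least 1 group.

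None of the 7 probes was called in any comparison, although the metallothioneins had the widest differences among them. Between SM and control, 0 of the 7 were called against 2.40% of all tested probes. Between SM+MSTF and control, no probe on the array was called (0%). Between SM+MSTF and SM, 0 of the 7 were called against 1.28% of all probes. At an unadjusted p under 0.05 the limma fit had 0, 2 and 2 of the member probes in these 3 comparisons, beside 16.4%, 9.56% and 15.9% of all probes, and the 2 were Mt1 and Mt2A both times. Between SM+MSTF and SM this held in 8 of 22 alternative settings for Mt1 and in 17 of 22 for Mt2A. These settings are not independent, and some share the same unadjusted p.

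Mt1, one of the metallothioneins made in hepatocytes, had a signal of 15.70, 16.54 and 14.92 in control replicates 1 to 3, 17.57, 15.44, 16.01 and 16.20 in SM replicates 1 to 4, and 17.42, 17.21 and 17.74 in SM+MSTF replicates 1 to 3. All 3 SM+MSTF livers lay above all 3 control livers. Among the SM livers, replicate 1 lay within the SM+MSTF range and the other 3 lay within the control range. The group means were 15.72 ± 0.81 (SD, n = 3), 16.31 ± 0.90 (SD, n = 4) and 17.45 ± 0.26 (SD, n = 3).

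Mt2A, which encodes a metallothionein of the same cluster on chromosome 19, ran in the same pattern. Its signal was 13.17, 14.33 and 12.53 in control, 15.38, 13.02, 13.54 and 13.70 in SM, and 15.20, 15.15 and 16.26 in SM+MSTF, in the order of the replicates. Again the SM+MSTF and control livers did not overlap, and SM replicate 1 stood among the SM+MSTF livers. The group means were 13.34 ± 0.91 (SD, n = 3), 13.91 ± 1.02 (SD, n = 4) and 15.54 ± 0.63 (SD, n = 3).

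**Figure D1:**
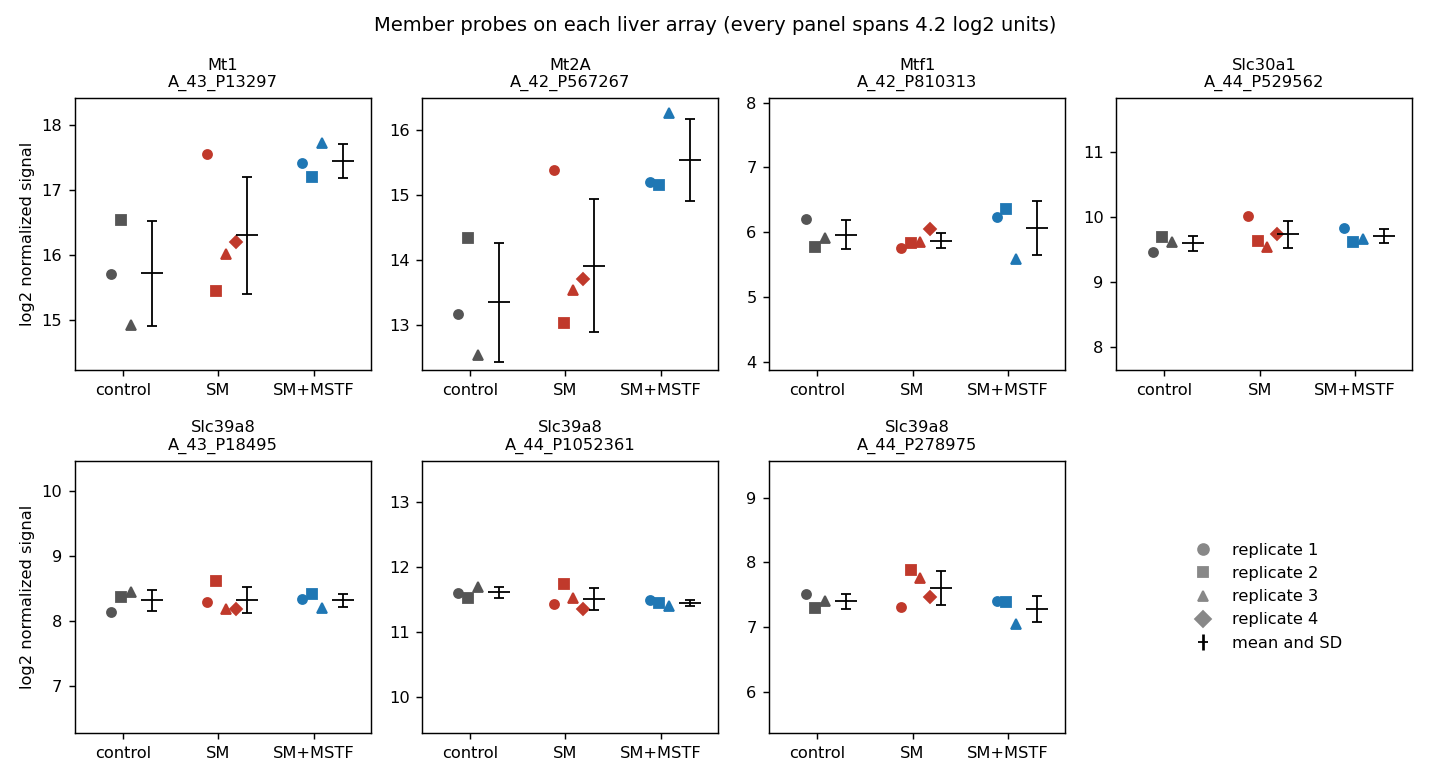
Log2 normalized signal (vertical axis) of the 7 member probes on each of the 10 arrays, by group (horizontal axis), with the symbol giving the replicate number and black bars the mean and SD. Mt1 and Mt2A spread over 1.62 and 1.80 log2 units among the control livers, and their SM+MSTF livers all lie above the controls. The other 5 probes spread over 0.44 log2 units or less among the control livers. Among the SM+MSTF livers Mtf1 spreads over 0.77 log2 units and Mt1 over 0.53.

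Against control, the SM+MSTF livers had 3.33-fold more Mt1 signal (log2 1.74, 95% CI 0.56 to 2.91) and 4.58-fold more Mt2A signal (log2 2.20, 95% CI 0.79 to 3.60). The limma p-values were 0.00837 for Mt1 and 0.00616 for Mt2A before adjustment, and 0.422 for both after Benjamini-Hochberg adjustment over all probes. An exact two-sided permutation test of each gene gave p = 0.10, the smallest that 3 against 3 arrays allow. Groups that did not overlap were found for 15.5% of all tested probes and 3 of the 7 member probes, with SM+MSTF higher for 8.08% of all probes and for 2 of the members.

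Against SM, the SM+MSTF livers had 2.22-fold more Mt1 signal (log2 1.15, 95% CI 0.05 to 2.25) and 3.09-fold more Mt2A signal (log2 1.63, 95% CI 0.31 to 2.95). The limma adjusted p was 0.296 for Mt1 and 0.233 for Mt2A. For each gene the SM+MSTF liver was higher in 10 of the 12 pairs of livers, and the exact permutation p was 0.114 (two-sided). The 2 pairs that went the other way were pairs with SM replicate 1 for both genes.

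SM versus control gave a smaller difference than the spread between livers. It was 0.59 for Mt1 (95% CI -0.51 to 1.69, limma adjusted p = 0.605) and 0.57 for Mt2A (95% CI -0.75 to 1.89, limma adjusted p = 0.686), on the log2 scale. Without SM replicate 1 these differences were 0.17 and 0.08, without control replicate 3 they were 0.19 and 0.16, and without control replicate 2 they were 1.00 and 1.06. A rise of SM over control of up to 3.23-fold for Mt1 and 3.70-fold for Mt2A lies within these intervals.

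Control and SM+MSTF can also be compared on slide 1 alone, which held all controls and SM+MSTF replicate 3. There the SM+MSTF liver exceeded the mean of the controls by 2.02 for Mt1 and 2.92 for Mt2A, and with the slide as a fixed block the limma adjusted p was 0.297 and 0.179. That fit rests on this 1 SM+MSTF liver, which is assumed to vary like the other livers. Without that liver, the differences of the other 2 from control were 1.60 and 1.83.

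**Figure D2:**
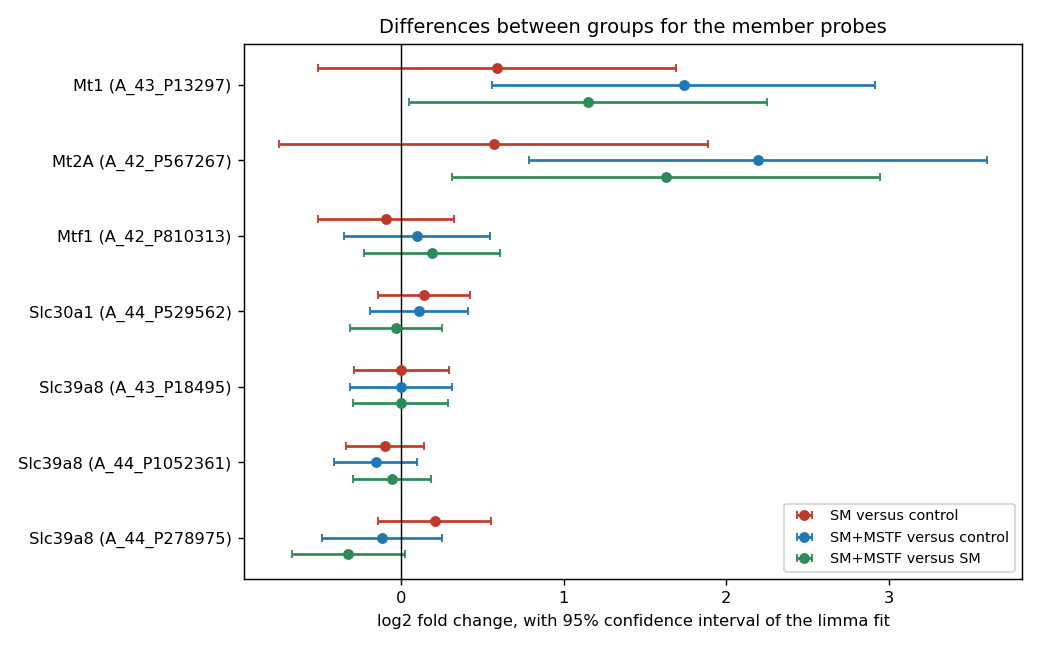
Log2 fold change (horizontal axis) of each member probe (vertical axis) in the 3 comparisons, with 95% confidence intervals of the limma fit over 10 arrays. The intervals of Mt1 and Mt2A lie above 0 in both comparisons of SM+MSTF, and every other interval includes 0.

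The metallothioneins differed more between livers of 1 group than most probes tested. The pooled SD within groups was 0.745 for Mt1 and 0.894 for Mt2A on the log2 scale, larger than that of 97.1% and 98.2% of all tested probes, whose median was 0.201. The highest control liver had 3.07 times the Mt1 signal of the lowest, and the highest SM liver had 4.36 times that of the lowest. The 3 SM+MSTF livers were closer together, with a range of 1.44-fold for Mt1 and 2.16-fold for Mt2A. Their Mt1 signals, 17.21 to 17.74, lay near the top of the scale, where Tf read 18.72. Quantile normalization sets the brightest ranks alike, and its part in the range of Mt1 was not tested.

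Mt1 and Mt2A varied together from liver to liver. Over the 10 arrays their log2 signals had a Pearson r of 0.984, and after the group means were subtracted the r was 0.971. Both genes placed the livers in the same order within all 3 groups, and on all 10 arrays they lay on the same side of their group mean. The arrays share their library and scaling, and the probe letters were not used here, so binding of one transcript to the probe of the other was not tested. Mt2A minus Mt1, in log2 signal, averaged -2.38 in control, -2.40 in SM and -1.92 in SM+MSTF. It was thus nearer to 0 in SM+MSTF, by 0.46 against control (exact permutation test, two-sided, p = 0.20) and by 0.48 against SM (exact permutation test, two-sided, p = 0.0857). Without SM+MSTF replicate 3 these shifts were 0.24 and 0.26. Mt1 was scaled up from the low-gain scan on all 10 arrays, but Mt2A only on the 3 SM+MSTF arrays and SM replicate 1. SM replicate 1 also had the value nearest to 0 of the SM arrays, at -2.18. Control replicate 2, where Mt2A was not scaled up, was close to it at -2.21. SM+MSTF replicate 1, where Mt2A was scaled up, was at -2.22. The part of the scan range in the shift was not tested, nor was that of the place of Mt1 near the top of the scale.

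**Figure D3:**
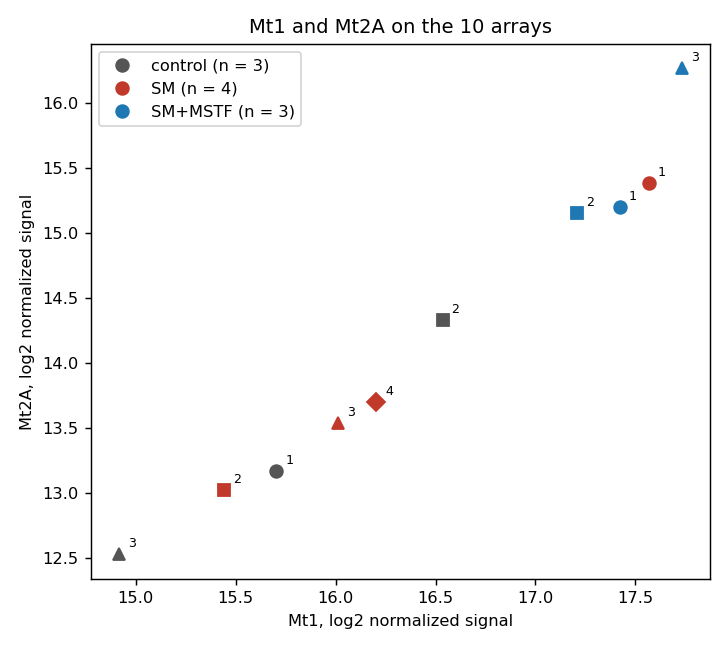
Log2 normalized signal of Mt1 (horizontal axis) and of Mt2A (vertical axis) on the 10 arrays, coloured by group, with the replicate number beside each point. The points follow a single line, and SM replicate 1 sits with the 3 SM+MSTF livers at the upper end.

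Mtf1, the metal-sensing transcription factor, showed no such separation of the groups. Its signal was 6.21, 5.77 and 5.91 in control, 5.75, 5.83, 5.86 and 6.04 in SM, and 6.24, 6.36 and 5.59 in SM+MSTF. The 3 groups overlapped, and SM+MSTF held both the highest and the lowest liver. The SM+MSTF livers of slide 3 read 6.24 and 6.36. Replicate 3, on slide 1, read 5.59, a log2 difference of -0.376 from the mean of the controls on that slide. The part of the slide was not tested. The difference from control was -0.09 in SM (95% CI -0.51 to 0.33) and 0.10 in SM+MSTF (95% CI -0.35 to 0.54). SM+MSTF differed from SM by 0.19 (95% CI -0.23 to 0.61). Its Pearson r over the 10 arrays was -0.05 with Mt1 and -0.14 with Mt2A.

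Slc30a1, the zinc exporter, had a signal of 9.46, 9.70 and 9.62 in control, 10.01, 9.64, 9.54 and 9.74 in SM, and 9.82, 9.62 and 9.66 in SM+MSTF. SM replicate 1 was the highest of all 10 livers, as it was the highest SM liver for Mt1 and Mt2A. The difference from control was 0.14 in SM (95% CI -0.14 to 0.42) and 0.11 in SM+MSTF (95% CI -0.19 to 0.41). SM+MSTF differed from SM by -0.03 (95% CI -0.31 to 0.25). The highest rise of SM+MSTF over control within the interval was 1.33-fold, below the 3.33-fold of Mt1. Over the 10 arrays the Pearson r of Slc30a1 was 0.586 with Mt1 and 0.522 with Mt2A.

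Slc39a8, the importer, had 3 probes that did not move alike. The probe A_44_P1052361 read 11.60, 11.53 and 11.69 in control, 11.43, 11.74, 11.53 and 11.35 in SM, and 11.50, 11.45 and 11.41 in SM+MSTF. Its SM+MSTF livers all lay below the control livers, by 0.16 on average (95% CI of the difference -0.41 to 0.10, limma adjusted p = 0.689). Groups that did not overlap with SM+MSTF lower were found for 7.42% of all tested probes. The probe A_44_P278975 was lower in SM+MSTF than in SM by a log2 difference of -0.32 (95% CI -0.67 to 0.02, limma adjusted p = 0.336) and differed by 0.21 in SM versus control. The probe A_43_P18495 had a log2 difference of -0.00365 in both comparisons of SM+MSTF and of -2.18e-06 in SM versus control.

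The moderated F-test over all 3 groups in limma gave an adjusted p of 0.216 for Mt1 and 0.185 for Mt2A, and of 0.438 or more for the other 5 probes.

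No other zinc transporter tested was called. SLC30 proteins carry zinc out of the cytosol, and SLC39 proteins carry it in. Of 9 other SLC30 genes listed, 8 were on the array and 6 were tested. By the brightest probe of each gene, limma called 0 in any comparison, and 0 had an unadjusted p under 0.05. Their differences in SM versus control ran from -0.12 to 0.31, with a median of 0.11 beside 0.03 for all tested probes. The widest were 0.31 for Slc30a4, 0.23 for Slc30a10, which exports manganese, and 0.15 for Slc30a9. By these probes the list ran from -0.10 to 0.36 between SM+MSTF and control, and from -0.15 to 0.06 between SM+MSTF and SM. A dimmer probe of Slc30a5, A_43_P10200, differed by 0.82 between SM+MSTF and SM (unadjusted p = 0.0109 and adjusted p = 0.182 in limma), where the other 2 probes of that gene differed by 0.20 and 0.02.

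Of 13 other SLC39 genes, 10 were on the array and 8 were tested. By limma 0 were called, and only Slc39a11, in SM versus control, had an unadjusted p under 0.05. In that comparison they ran from -0.24 to 0.44 with a median of 0.02. The widest were 0.44 for Slc39a11 (limma adjusted p = 0.222), -0.24 for Slc39a4 and 0.23 for Slc39a1. Slc39a14, the importer that the acute phase response induces in hepatocytes, differed in SM+MSTF versus control by 0.36, -0.09, 0.26 and 0.11 on its 4 probes, none of which passed. Between SM+MSTF and SM these probes differed by 0.52, 0.07, 0.27 and 0.32, with a limma adjusted p of 0.342 or more. In SM+MSTF versus control the 3 probes of Slc30a5 went both ways, at 0.47, 0.10 and -0.08. Of the other metallothioneins, Mt3, the brain form, was well above background on 1 of the 10 arrays and was not tested, and Mt4 was not matched to a probe.

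**Figure D4:**
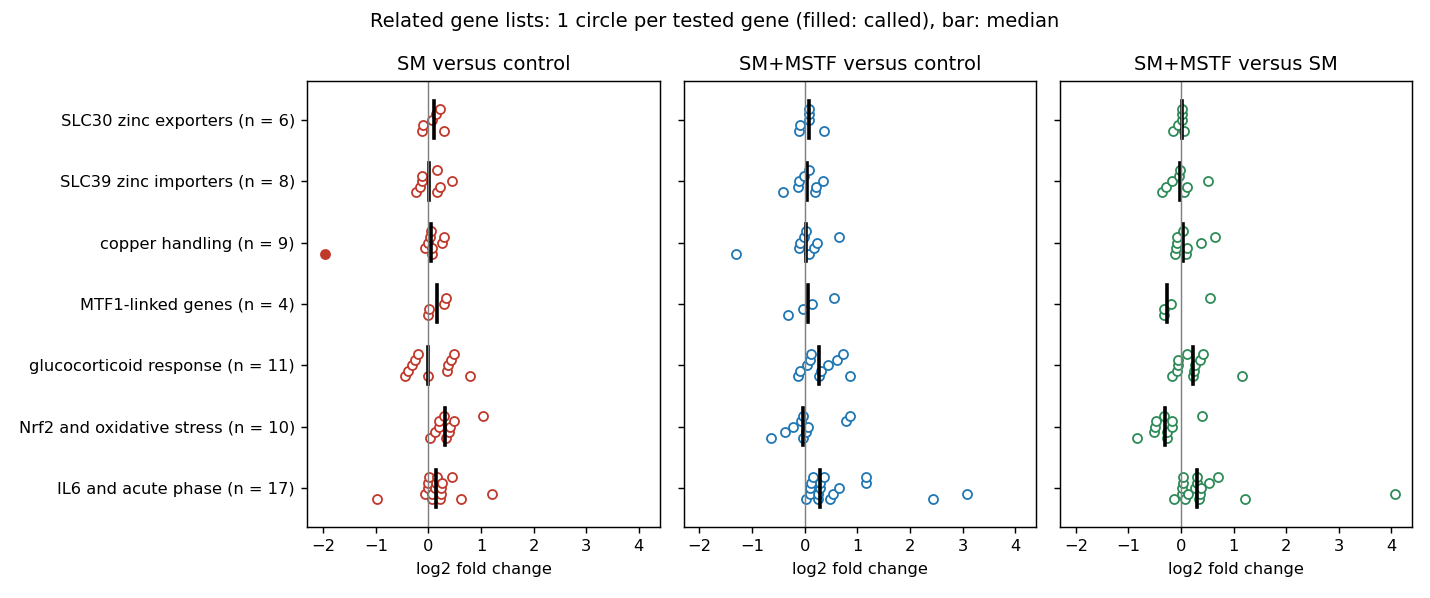
Log2 fold change (horizontal axis) of each tested gene in 7 related lists (vertical axis) in the 3 comparisons, with filled circles for called genes and a black bar at the median of the list. The only filled circle is Slc31a1, the copper importer, in SM versus control, and the zinc transporter lists, by the brightest probe of each gene, lie between -0.41 and 0.52.

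Metallothioneins also bind copper, and among 10 genes of copper handling, of which 9 were tested, Slc31a1 fell in SM. Slc31a1 encodes CTR1, the copper importer of the plasma membrane. Its signal was 9.54, 9.41 and 9.29 in control, 7.31, 7.30, 7.54 and 7.67 in SM, and 7.57, 7.67 and 9.08 in SM+MSTF. It fell by 1.96 on the log2 scale in SM versus control (SE 0.31, limma adjusted p = 0.0191). The 2 low SM+MSTF livers were those of slide 3, and replicate 3, on the slide of the controls, lay just under the lowest control. SM+MSTF therefore lay below control by a log2 difference of -1.30 (SE 0.34, limma adjusted p = 0.404), of -1.79 without replicate 3 (adjusted p = 0.000871) and of -0.33 with the slide as a fixed block. The part of the slide in this fall was not tested, since SM and slide 2 cannot be told apart. With the slide as a random block the adjusted p in SM versus control was 0.0619 and with the replicate number as a block 0.0622, and it was 0.0593 without SM replicate 1, 0.051 without SM replicate 3 and 0.0633 to 0.0807 without any 1 of the control arrays. In these settings the difference itself stayed between -2.03 and -1.86. The other 8 genes ran from -0.07 to 0.31, the widest being 0.31 for Atp7b, the copper ATPase of the hepatocyte, and 0.26 for Cp, ceruloplasmin.

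Genes known to be linked to MTF1 were set beside the metallothioneins. Of 6, 4 were tested and limma called 0, with a median of 0.16 in SM against control, 0.05 in SM+MSTF against control and -0.26 in SM+MSTF against SM, which was -0.02 without SM+MSTF replicate 3. Selenow, which encodes a small selenoprotein, differed by 0.33 in SM versus control, Gclc, the catalytic subunit of glutathione synthesis, by 0.29 and Csrp1 by 0.02. Selenow had an unadjusted p under 0.05 in that comparison, as did Ndrg1 between SM+MSTF and SM, at 0.56. Each was 1 of 4 genes tested, beside 16.4% and 15.9% of all tested probes in these comparisons.

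Of 11 genes linked to glucocorticoids, all were tested and limma called 0. At an unadjusted p under 0.05 there was 1, Angptl4, in both comparisons of SM+MSTF and 0 in SM versus control, beside 9.56%, 15.9% and 16.4% of all tested probes (SM+MSTF against control, SM+MSTF against SM, and SM against control). Their median was -0.02 for SM and 0.27 for SM+MSTF, each against control, and 0.23 for SM+MSTF against SM, beside 0.03, 0.00 and -0.02 for all tested probes. Without SM+MSTF replicate 3, the liver with the most Mt1 and Mt2A signal, the medians of SM+MSTF were 0.06 against control and -0.15 against SM. The widest in SM versus control were Sgk1, a kinase, at 0.78, Per1, a clock gene, at 0.49 and Angptl4, an inhibitor of lipoprotein lipase, at -0.44. Angptl4 read 11.05, 10.76 and 10.82 in control, 10.72, 9.89, 10.23 and 10.89 in SM, and 11.16, 12.02 and 11.62 in SM+MSTF. Its SM+MSTF livers lay above every other liver, by a log2 difference of 1.17 against SM (limma adjusted p = 0.0695).

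Of 18 genes of interleukin 6 signalling and the acute phase response, 17 were tested and limma called 0. Their median was 0.14 for SM and 0.30 for SM+MSTF, each against control, and 0.30 for SM+MSTF against SM. The 17 differences of SM+MSTF from control ran from 0.02 to 3.09, and 4 had an unadjusted p under 0.05 and were higher, beside 4.38% of all tested probes. These were Hamp, Cp at 0.65, Hpx, hemopexin, at 0.47 and Crp, C-reactive protein, at 0.26. The fit had 0 at that level in SM versus control and 2, Hamp and Crp, between SM+MSTF and SM. Without SM+MSTF replicate 3 the median was 0.14 against control, with 15 of the 17 above 0 and the lowest at -0.34, and -0.0025 against SM, and Cp differed from control by 0.30. Hamp, the iron hormone hepcidin, read 10.83, 14.12 and 14.92 in control, 14.94, 9.93, 12.33 and 12.08 in SM, and 16.17, 16.47 and 16.52 in SM+MSTF. Its SM+MSTF livers were the 3 highest, at 3.09 over control (limma adjusted p = 0.481), or 1.86 without control replicate 1, and 4.07 over SM (limma adjusted p = 0.146). SM replicate 1 was the highest SM liver for Hamp, as for Mt1. Lcn2, lipocalin 2, differed from control by 1.21 in SM and by 2.43 in SM+MSTF, and Orm1, an acid glycoprotein, by 0.62 and 1.16, with overlapping groups. These rested on single livers. Without SM replicate 4 the SM differences were 0.20 for Lcn2 and 0.30 for Orm1, and without SM+MSTF replicate 1 those of SM+MSTF were 0.50 and 0.40. Among neutrophil markers 3 of 6 were tested, and the log2 of their summed signal was 8.32 to 9.06 in control, 8.29 to 10.6 in SM and 8.58 to 9.96 in SM+MSTF. The 3 did not move alike. In SM versus control S100a8 differed by 0.75 and S100a9 by 0.61, and the remaining marker by -1.05. Between SM+MSTF and SM they ran from -0.25 to 1.37, with a median of 0.28. All 7 markers of Kupffer cells and macrophages were tested and limma called 0. All 7 had a positive difference between SM+MSTF and SM, from 0.32 to 0.95 with a median of 0.45. In that comparison 4 of the 7 had an unadjusted p under 0.05 in limma, beside 15.9% of all tested probes. Against control the median of the 7 was -0.15 in SM and 0.31 in SM+MSTF. In all SM+MSTF livers 3 of the 7 lay above every control, beside 8.08% of all tested probes. The log2 of their summed signal was 15.7 to 16.2 in control, 15.1 to 15.9 in SM and 15.7 to 16.1 in SM+MSTF. Of all the cell markers, 1 was called. It was Klrd1, a receptor subunit of natural killer cells and 1 of 5 lymphocyte markers tested. All 5 had a negative difference in SM versus control, from -2.18 to -0.11 with a median of -0.28. Without SM replicate 2 that median was -0.11, and 1 of the 5 lay above 0. All 5 had a positive difference between SM+MSTF and SM, from 0.06 to 1.15 with a median of 0.51. Without SM+MSTF replicate 3 that median was 0.17. Klrd1 differed by -1.22 between SM and control (limma adjusted p = 0.0274) and by 1.15 between SM+MSTF and SM (limma adjusted p = 0.0446). Of all tested probes, 2.40% and 1.28% were called in these comparisons. The part of other cells in these values was not tested, and in whole liver RNA fewer cells of a type and less RNA per cell cannot be told apart.

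Of 13 targets of Nrf2, the regulator of the response to electrophiles, 10 were tested and limma called 0. At an unadjusted p under 0.05 the fit had 3 in SM versus control, all with a positive difference, and 2 between SM+MSTF and SM, both negative, beside 16.4% and 15.9% of all tested probes. The 3 were Nqo1, Gsr and Txnrd1, and the 2 were Gsr and Txnrd1, a thioredoxin reductase. Their median was 0.31 for SM and -0.03 for SM+MSTF, each against control, and -0.30 for SM+MSTF against SM. Without SM+MSTF replicate 3 the medians of SM+MSTF were 0.17 and -0.11. Nqo1, a quinone reductase, differed by 1.03 in SM versus control (limma adjusted p = 0.279), or 0.44 without control replicate 1, Gsr, glutathione reductase, by 0.49 and Akr7a3, an aldehyde reductase, by 0.41. Gclm, the modifier subunit of glutathione synthesis, did not pass the filter and went the other way. It read 4.72 to 5.23 in control, well above background on 2 of 3 arrays, 1.94 to 2.47 in SM, on none, and 2.04 to 4.76 in SM+MSTF, on 1. Gpx2, a glutathione peroxidase, also did not pass the filter. It averaged 4.51 in control, 5.21 in SM and 4.84 in SM+MSTF, with overlapping groups. Slc7a11, likewise not tested, was well above background on no array.

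The named genes most like the metallothioneins over the 10 arrays were found by Pearson r of log2 signal, which is given as a description. For Mt1 these were Mt2A, then Ifngr1, a subunit of the interferon gamma receptor, at 0.955, Akr1d1, the bile acid pathway reductase, at 0.938, Ets2, a transcription factor, at 0.881 and Abhd16a, a lipase, at 0.879. For Mt2A they were Mt1, Ifngr1 at 0.964, Akr1d1 at 0.910, Taf2 at 0.909 and Hacl1, an enzyme of fatty acid oxidation, at 0.892. The differences of these genes were smaller than those of the metallothioneins. Akr1d1 ran from 12.25 to 12.97 in control, from 12.52 to 13.26 in SM and from 12.98 to 13.41 in SM+MSTF, and Ifngr1 from 8.24 to 8.37, from 8.30 to 8.52 and from 8.47 to 8.62.

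The nearest genes of the other members were different ones. For Slc30a1 they were Gnmt, glycine N-methyltransferase, at 0.952, S100a8 at 0.918, Frmd4a at 0.884, S100a9 at 0.882 and Mthfd1, an enzyme of folate metabolism, at 0.880. S100a8 and S100a9 encode the subunits of calprotectin, a zinc-binding protein of neutrophils. For Mtf1 they included Hsd17b1 at 0.957, Ube2f at 0.933, Rnd3 at 0.917 and Gstp1 at 0.895. The 3 probes of Slc39a8 shared none of their 5 nearest genes, led by Mrfap1 at 0.946, Impa1 at 0.914 and Plk2 at 0.968.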

How the data were processed

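RNA of 10 livers, labelled with Cy3, was measured on Agilent one-colour arrays of the rat genome, 1 liver per array. The authors read the spots with Agilent Feature Extraction 10.7, and the deposited spot intensity is background subtracted and not normalized between arrays. The authors also deposited log2 values per probe after quantile normalization, which served as an alternative. Each of those 10 columns matched its own array best.

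Control spots and outlier spots (76 to 118 per array) were left out. Quantile normalization of the intensity between arrays was followed by log2 and by averaging per probe, with limma 3.58.1 in R 4.3.3. Probes were tested where all arrays of 1 group or more put them well above background and each group had at least 2 values. All pairs of groups were compared within 1 limma fit (lmFit, then eBayes), and p-values were adjusted by Benjamini-Hochberg over the 22987 probes tested. Single members were also compared by exact permutation. The script was tested on simulated data. Pearson r of log2 signal between arrays was 0.977 to 0.991 within groups and 0.969 to 0.988 between groups. The number of arrays limits the precision.

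Gene names came through probe accessions from a RefSeq table of GRCr8, which named 17512 of 41012 probes. The array was designed on an older assembly, so no probe coordinates are given. Promoters of all 5 members were in the RefSeq table of GRCr8. A gene outside the members is represented by its brightest probe. Named genes are the members, list genes called in any comparison, the 3 of each list with the widest difference in SM versus control, and the 5 genes most correlated with each member probe. Of these, 1 gene is not reported here. Hpx, Crp, Slc39a14, Slc30a5, Ndrg1, Txnrd1, Gclm, Gpx2, Slc7a11, Klrd1, Tf, Ttr, Apoa1, Apob and Mt3 outside that rule were chosen after their values were seen. The members and lists were chosen with earlier results of these data known.

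Replicate numbers were not treated as a pairing in the main fit. Deviations from the group means correlated at -0.0993 to 0.169 for same-numbered arrays and at -0.232 to 0.181 for the others. The best correlated array of another group had the same number in 8 of 18 cases. These values cannot exclude a pairing. Alternatives were another scaling, the deposited log2 values, normexp background correction (offset 50, on median signals), other filters, outlier spots kept, only the groups compared, replicate number or slide as a block, no fold minimum, the methods' t-test, and each array left out in turn. Leaving out arrays for the gene lists, their named genes and Mt2A minus Mt1 was chosen after seeing the data.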

Additional observations from a re-analysis of the deposited data

How the results depend on the processing

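Mt1 and Mt2A kept their direction in all 3 comparisons under every alternative run. In SM+MSTF versus control the log2 difference of Mt1 ran from 1.34 to 2.15 and that of Mt2A from 1.79 to 2.92, and the lowest adjusted p was 0.297 and 0.179. Both had an unadjusted p under 0.05 in all 23 settings of that comparison, against 8 of 22 for Mt1 and 17 of 22 for Mt2A between SM+MSTF and SM. The settings are not independent. Dropping the fold minimum leaves the p-values of the main fit unchanged. The methods' t-test is counted before and after adjustment with the same unadjusted p. The methods' t-test called both at its unadjusted threshold and neither after Benjamini-Hochberg, where its adjusted p was 0.620 for both. Other members changed sign only where the difference in the main fit was small. Mtf1 in SM+MSTF against control was -0.376 with the slide as a fixed block and -0.0502 to 0.334 with 1 array left out, and in SM against control -0.187 to 0.0319 with 1 array left out. With 1 array left out of SM+MSTF versus SM, Slc30a1 was -0.0944 to 0.0621 and Slc39a8 probe A_44_P1052361 was -0.111 to 0.0185. Probe A_43_P18495 in SM against control was 0.00203 on the deposited log2 values, 0.0431 with the replicate block and -0.0975 to 0.0667 with 1 array left out. Its difference of SM+MSTF from control was 0.000412 on the deposited log2 values and -0.0963 to 0.0630 with 1 array left out, and that from SM was 0.00167 under 75th percentile scaling, 0.0152 under normexp and -0.0499 to 0.0938 with 1 array left out.

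The counts of called probes over the whole array depended more on the settings, and the cause was not tested. In SM versus control 551 probes were called (3773 at an unadjusted p under 0.05). The count was 214 under normexp, 338 without a filter, 337 with probes detected on all arrays, 86 with the slide as a random block, 1133 by the methods' t-test, 322 by it after Benjamini-Hochberg, and 65 to 719 with 1 array left out. Between SM+MSTF and control the count of 0 became 291 with the slide as a fixed block, a fit that sets 1 SM+MSTF liver against the controls and takes its spread from the other livers, 285 by the methods' t-test, and 0 to 249 with 1 array left out, the 249 without SM+MSTF replicate 3. Between SM+MSTF and SM the 294 became 57 under normexp, 140 with probes detected on all arrays, 155 with only the groups compared, 103 with the slide as a random block, 864 and 13 by the methods' t-test before and after adjustment, and 100 to 301 with 1 array left out. The F-test count of 476 became 191 under normexp, 243 without a filter, 244 with probes detected on all arrays, 86 with the slide as a random block, 123 by one-way analysis of variance, and 67 to 872 with 1 array left out. With the replicate number as a block the counts were 52 for SM against control, 65 for SM+MSTF against SM and 17 for the F-test, and it called no member. The best correlated array of another group had the same number in 8 of 18 cases. A fixed slide block could not be fitted for the comparisons with SM, since slide 2 held no other group. All member probes lay well above background on every array.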
